A study of Rattus norvegicus with 12 samples.

Results

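The values of 10 choroid plexus genes, of 35608 genes on the array, are described here: Ttr, Sostdc1, Folr1, Otx2, Enpp2, Kl, Prlr, Krt8, Krt18 and Wfdc2. In the epithelium of the choroid plexus they encode secreted proteins, receptors, a transcription factor and epithelial keratins. Every non-control probe carrying a member's name was taken. The scanner files name 8 of the 10. The other 2, Krt8 and Krt18, appear there under the older names Krt2-8 and Krt1-18 and were matched through their RefSeq accession. The members were chosen by how high some of them stood on the HFS arrays of these data, so their values against 6-OHDA are a description. Otx2 and Krt18 had 2 probes each, Prlr had 1 probe printed in 10 spots, and the other members had 1 probe in 1 spot.

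RNA came from the dorsal striatum of male rats with a unilateral lesion of the nigral dopamine neurons, made with 9 µg of 6-OHDA on the left side. Each of the 12 animals was hybridised to 1 single-colour array, in 4 groups of 3. The 6-OHDA group had the lesion alone. In the HFS group, high frequency stimulation of the subthalamic nucleus (130 Hz, 80 µs, 60 µA) ran over 5 days. The dose in the DOPA group was 25 mg/kg for L-DOPA and, for the decarboxylase inhibitor benserazide, 12.5 mg/kg, injected 2 times a day over 19 days. DOPA/HFS animals had L-DOPA together with stimulation. Among these 4 groups, implantation of an electrode is described only for HFS and DOPA/HFS, so implantation and stimulation cannot be told apart. All 4 groups carried the lesion, and no array of intact striatum was analysed here. The tissue was punched from sections, and punches were pooled to reach the amount needed for extraction, so each sample is a block of bulk tissue.

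The choroid plexus is a folded epithelium that hangs into the brain ventricles and makes cerebrospinal fluid. Its cells secrete transthyretin (Ttr), the carrier of thyroxine and of retinol-binding protein, and pass folate from blood to fluid through folate receptor alpha (Folr1). The lateral ventricle lies beside the dorsal striatum, and its wall is lined by ependyma, a ciliated epithelium marked by the transcription factor Foxj1. In bulk tissue, fewer cells of a type and less RNA per cell cannot be told apart.

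Replicate numbers 1 to 3 correspond to 3 slides, each holding 1 array of every group. Each group kept the same position on all 3 slides, so position and group cannot be told apart. Between 50.5% and 63.2% of the spots on an array were well above background, the scanner software's detection flag. The array DOPA/HFS 3 stood apart with 4175 outlier spots, against 2 to 25 on the others. The Folr1 spot and the spot of the dimmer Otx2 probe were among them, and neither probe has a value there. Marker sums for striatal projection neurons varied little on the log2 scale, between 18.01 and 18.36 over all arrays.

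The promoters of Ttr, Krt8 and Krt18 are printed because these genes mark the contrast between array profiles described here. Ttr had the widest range of all members, while Krt8 and Krt18 encode partner keratins and lie on the same chromosome with 1 annotated gene between them. The sequences are the 250 bases before the RefSeq start site in the assembly GRCr8, 5′ to 3′ on the strand of the gene. Ttr is at chr18:12218508-12218757 (plus strand), Krt8 at chr7:135010340-135010589 (minus strand) and Krt18 at chr7:135035918-135036167 (plus strand). Capitals mark the TATA box core TATAAA on either strand.
Ttr: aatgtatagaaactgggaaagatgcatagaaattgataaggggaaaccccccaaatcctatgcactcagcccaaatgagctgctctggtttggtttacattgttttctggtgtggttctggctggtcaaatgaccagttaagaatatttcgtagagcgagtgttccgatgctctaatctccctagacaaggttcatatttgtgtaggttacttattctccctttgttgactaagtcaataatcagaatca
Krt8: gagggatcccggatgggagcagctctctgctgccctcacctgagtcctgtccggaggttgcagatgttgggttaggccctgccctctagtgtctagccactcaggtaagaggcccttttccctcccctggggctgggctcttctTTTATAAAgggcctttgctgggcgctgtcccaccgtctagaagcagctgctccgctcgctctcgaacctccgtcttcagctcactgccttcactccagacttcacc
Krt18: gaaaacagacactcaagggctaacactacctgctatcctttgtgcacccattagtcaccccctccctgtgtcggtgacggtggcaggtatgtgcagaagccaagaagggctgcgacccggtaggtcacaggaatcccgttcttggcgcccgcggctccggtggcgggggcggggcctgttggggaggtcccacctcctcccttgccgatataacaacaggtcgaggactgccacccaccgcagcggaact
Promoter entries were matched for 6 of the 10 members, 7 entries in all. The Krt8 stretch holds TATAAA on both strands, in overlapping matches that begin 106 and 104 bases before the start site. The letters TATAAA occur on either strand in 12.9% of 33469 such stretches, the CCAAT box core CCAAT in 34% and TAATCC, the core letters bound by Otx-type homeodomain proteins, in 6.34%. Neither CCAAT nor TAATCC is present in the 7 member stretches. These letters are a description of the windows.

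Ttr, the secreted thyroxine carrier, read higher on every HFS array than on any 6-OHDA array. On the scanner's linear scale, its spot read 70.5, 67.0 and 71.7 on the 6-OHDA arrays. The HFS arrays read 71200, 4276 and 46530. The DOPA arrays read 4.57, 1089 and 11840, and the DOPA/HFS arrays 342, 631 and 10.1. No Ttr spot was saturated or marked as an outlier, and the probe was well above background on 10 of 12 arrays, failing on DOPA 1 and DOPA/HFS 3. After quantile normalisation, the log2 signals were 6.23, 6.59 and 5.80 for 6-OHDA, 16.30, 11.86 and 15.28 for HFS, 2.41, 10.29 and 13.81 for DOPA, and 8.28, 9.25 and 2.79 for DOPA/HFS. The 6-OHDA arrays were close together, whereas the arrays within each treated group were far apart. DOPA 3 stood above HFS 2, so the HFS and DOPA groups overlapped.

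Group means of the Ttr log2 signal were 14.48 ± 2.33 in HFS, 8.84 ± 5.84 in DOPA, 6.77 ± 3.48 in DOPA/HFS and 6.21 ± 0.40 in 6-OHDA (SD, n = 3 arrays each, of which 2 were well above background in DOPA and in DOPA/HFS). No neighbours in this order differed beyond the spread of both groups, since the DOPA arrays reached from 2.41 to 13.81. HFS and 6-OHDA, at the ends of the order, did not overlap. Within slides, HFS minus 6-OHDA was 10.07, 5.27 and 9.48 on the log2 scale. On the same slides DOPA minus 6-OHDA was -3.82, 3.70 and 8.01, and DOPA/HFS minus 6-OHDA was 2.05, 2.65 and -3.01. The sign was therefore the same on all 3 slides for HFS alone among the treatments.

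Sostdc1, a secreted antagonist of bone morphogenetic proteins that also acts on Wnt signalling, followed Ttr. Its log2 signals were 5.68, 5.57 and 5.50 on the 6-OHDA arrays and 12.44, 7.97 and 11.64 on the HFS arrays. DOPA gave 5.25, 6.69 and 10.47, and DOPA/HFS gave 6.15, 6.65 and 6.03, with the probe well above background on all 12 arrays. The order of arrays at the top was that of Ttr (HFS 1, HFS 3, DOPA 3), and all 3 HFS arrays and all 3 DOPA/HFS arrays lay above the 6-OHDA arrays. With the outlier spots kept or with the deposited log2 table, the DOPA/HFS arrays no longer lay clear of 6-OHDA.

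**Figure D1:**
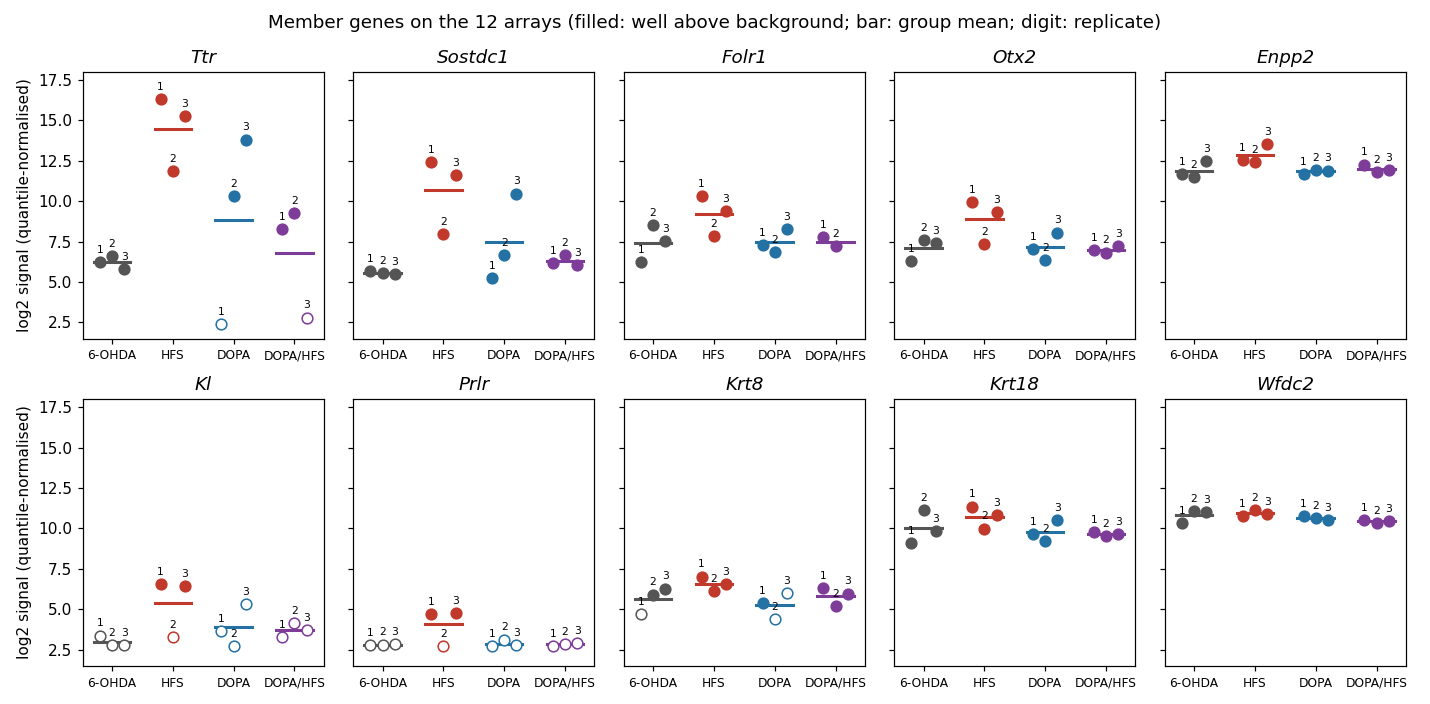
Log2 quantile-normalised signal (y axis) of the 10 members on the 12 arrays, by group (x axis); filled points were well above background, open points were not, digits are replicate numbers and bars are group means. Ttr and Sostdc1 were highest on HFS 1, HFS 3 and DOPA 3, while Enpp2 and Wfdc2 stayed within 2.04 and 0.82 over all arrays.

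The receptors Kl and Prlr were near the detection limit. Kl encodes klotho, the co-receptor that lets FGF receptors respond to FGF23, and Prlr encodes the prolactin receptor. Kl log2 signals were 3.37, 2.76 and 2.77 (6-OHDA), 6.53, 3.28 and 6.42 (HFS), 3.63, 2.73 and 5.33 (DOPA) and 3.28, 4.12 and 3.73 (DOPA/HFS). It was well above background only on HFS 1 and HFS 3. The lowest signal well above background on each array was taken as the floor. The HFS mean was 1.32-fold above the floor of the 6-OHDA arrays (mean log2 signals 5.41 for HFS and 2.97 for 6-OHDA). Only 2 of 3 HFS arrays were measured. The HFS 2 value, not well above background, enters the HFS mean as read, so 1.32 is not a lower bound on the fold.

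Prlr was also well above background only on HFS 1 and HFS 3. Its log2 signals on these arrays were 4.69 and 4.78, against 2.71 on HFS 2. On the other groups it read 2.76, 2.81 and 2.86 (6-OHDA), 2.71, 3.12 and 2.77 (DOPA) and 2.71, 2.85 and 2.93 (DOPA/HFS). The 10 spots of this probe gave linear intensities of 10.1 to 43.9 on HFS 1 and 28.3 to 71.6 on HFS 3, and no bound on a fold could be set because the floor lay above the HFS mean. Kl and Prlr did not pass the filter on dim probes, and 8 of 10 members were tested among 20400 genes.

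Folr1, which carries folate into the cerebrospinal fluid, had log2 signals of 6.22, 8.50 and 7.53 on the 6-OHDA arrays. HFS gave 10.34, 7.85 and 9.38, DOPA 7.28, 6.83 and 8.27, and DOPA/HFS replicates 1 and 2 gave 7.78 and 7.22. HFS 1 and HFS 3 were the highest arrays, but 6-OHDA 2 came next, above HFS 2. The groups overlapped for every treatment.

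Otx2, a homeodomain transcription factor needed to form and keep the choroid plexus, had log2 signals of 6.31, 7.60 and 7.38 on 6-OHDA and 9.94, 7.37 and 9.32 on HFS. Its DOPA signals were 7.02, 6.37 and 8.05, and its DOPA/HFS signals 6.98, 6.82 and 7.23. HFS 2 lay within the 6-OHDA arrays. The second Otx2 probe ran alongside over 11 arrays (Pearson r of 0.93 between the probes), with an HFS minus 6-OHDA difference of 1.48 against 1.78 for the first.

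Krt8 and Krt18 encode the keratin pair of simple epithelia. Krt18 log2 signals were 9.11, 11.13 and 9.84 (6-OHDA), 11.35, 9.99 and 10.80 (HFS), 9.66, 9.20 and 10.50 (DOPA) and 9.75, 9.51 and 9.64 (DOPA/HFS). Here 6-OHDA 2 was second only to HFS 1. The other Krt18 probe ran alongside (r of 0.94 over 12 arrays), with an HFS minus 6-OHDA difference of 0.88 against 0.69. Krt8 was well above background on 9 arrays, with 4.71, 5.91 and 6.27 in 6-OHDA and 7.02, 6.11 and 6.56 in HFS. Its DOPA signals were 5.40, 4.40 and 5.98, and DOPA/HFS gave 6.31, 5.18 and 5.97. Both keratins overlapped between every treated group and 6-OHDA.

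Enpp2 and Wfdc2, both secreted, had the narrowest ranges of log2 signal over the arrays, 2.04 and 0.82. Enpp2 encodes autotaxin, which makes lysophosphatidic acid and is also made by oligodendrocytes. It read 11.69, 11.49 and 12.51 on 6-OHDA, 12.54, 12.44 and 13.53 on HFS, 11.69, 11.92 and 11.89 on DOPA, and 12.26, 11.80 and 11.92 on DOPA/HFS. Within slides, HFS minus 6-OHDA was 0.85, 0.95 and 1.03, the same sign each time, although HFS 2 lay just below 6-OHDA 3. Wfdc2, a small whey acidic protein domain protein secreted by epithelia, read 10.36, 11.06 and 10.99 on 6-OHDA and 10.79, 11.16 and 10.88 on HFS. Its DOPA signals were 10.77, 10.65 and 10.51, and its DOPA/HFS signals 10.49, 10.33 and 10.47.

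No member was called by limma at an adjusted p under 0.1 with a fold over 1.2 or under 0.8, in any of the 4 contrasts. For HFS vs 6-OHDA, 0 of 8 tested members were called, as were 0% of 20400 genes, and 5 members were higher at an unadjusted p under 0.05, against 1.21% of all genes. These 5 were Ttr, Sostdc1, Folr1, Otx2 and Enpp2. All HFS arrays lay above all 6-OHDA arrays for 2 members, Ttr and Sostdc1, where 2.8% of genes showed this. The count was 4 without 6-OHDA replicate 2 (with Folr1 and Krt18), 4 without 6-OHDA replicate 3 (with Enpp2 and Krt8) and 6 without HFS replicate 2 (with Folr1, Otx2, Enpp2 and Krt8). The share of all genes was not computed with an array left out, so the 2.8% is no baseline for these. Because the members were chosen by this contrast, nothing is read from these counts.

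For DOPA vs 6-OHDA, 0 of 8 members were called (0.0049% of all genes, 1 gene), 0 were higher at an unadjusted p under 0.05 (1.32% of all genes) and 0 lay higher on every array (3.16% of genes). Without DOPA replicate 1 the last count was 2 (Ttr and Sostdc1), and without 6-OHDA replicate 3 it was 1 (Enpp2). For DOPA/HFS vs 6-OHDA, 0 were called (0% of genes), 0 were higher at an unadjusted p under 0.05 (0.828% of genes) and 1 of 7 with values on all 6 arrays, Sostdc1, lay higher on every array (1.74% of genes). That count was 2 without 6-OHDA replicate 3 (with Enpp2) or without DOPA/HFS replicate 3 (with Ttr). For both treatments the share of all genes was not computed with an array left out, so nothing is read from those counts. The interaction, in which the HFS effect under L-DOPA is set against that without L-DOPA, was called by limma for 0 members and 0% of genes, with 2 members, Ttr and Sostdc1, lower at an unadjusted p under 0.05 (1.24% of all genes). The HFS values that chose the members enter this contrast too. The 3 comparisons share the 6-OHDA arrays.

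The size of the HFS difference ran from a log2 fold change of 8.27 (SE 2.51) for Ttr and 5.10 (SE 1.26) for Sostdc1, through 1.78 (SE 0.62) for Otx2 and 1.77 (SE 0.69) for Folr1, to 0.94 (SE 0.32) for Enpp2 and 0.93 (SE 0.49) for Krt8. Krt18 had 0.69 (SE 0.50) and Wfdc2 had 0.14 (SE 0.19). Single arrays moved several of these differences. Otx2 ranged from 1.25 without HFS 1 to 2.54 without HFS 2, and Folr1 from 1.17 without 6-OHDA 1 to 2.45 without HFS 2. Krt18 ranged from 0.23 without 6-OHDA 1 to 1.24 without 6-OHDA 2, and Enpp2 from 0.60 without HFS 3 to 1.25 without 6-OHDA 3. Krt8 ranged from 0.39 with another background correction (normexp) to 1.25 without 6-OHDA 3. The median over the 8 tested members was 1.36 for HFS, -0.01 for DOPA and 0.09 for DOPA/HFS, beside medians over all genes of 0.01, -0.01 and -0.01. Only Ttr and Sostdc1 had a DOPA difference over 1, at 2.63 (SE 2.51) and 1.88 (SE 1.26). Without DOPA 3 they became 0.14 for Ttr and 0.39 for Sostdc1, and without DOPA 1, where Ttr was not well above background, 5.84 and 2.99.

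The array profiles fell into different shapes. HFS 1 was the highest array for 7 of 10 members, and for 5 of the 7 tested members with 12 values. Of 18350 tested genes with 12 values, 10.4% had it highest. HFS 1, HFS 3 and DOPA 3 were the top 3 arrays for Ttr, Sostdc1 and Otx2, 3 of those 7 members (0.191% of the 18350 genes), and also for Kl, which was not well above background on DOPA 3. Since the members were chosen for high HFS values, nothing is read from these shares. Prlr, Folr1, Krt8, Krt18 and Enpp2 had HFS 1 and HFS 3 among their top 3 with a different array as the other. Enpp2 and Prlr were highest on HFS 3, and Wfdc2 on HFS 2.

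The amount by which a member exceeded its 6-OHDA mean was taken in quantile-normalised signal on the linear scale. It fell in the order HFS 1, HFS 3, DOPA 3, HFS 2 for 6 of 10 members. This is the order of Ttr itself, and the members were chosen for high HFS values, so nothing is read from the count. The share of all genes with this order was not computed. Taking HFS 1 as 100%, the excess of Ttr was 49.1% on HFS 3, 17.6% on DOPA 3 and 4.51% on HFS 2. Sostdc1 gave 56.8%, 24.8% and 3.67%. Otx2 gave 58.6%, 14.2% and 2.25%, and Folr1 gave 42.3%, 9.29% and 2.16%. For Otx2 and Folr1 HFS 2 lay within the range of the 6-OHDA arrays, as did DOPA 3 for Folr1. For Kl, the excess was 92.1% on HFS 3 and 38.0% on DOPA 3, where it was not well above background. On HFS 2, also not well above background, Kl gave 2.10%, below the 2.78% of 6-OHDA 1.
The potassium channel Kcnj13 and the water channel Aqp1, choroid plexus genes outside the members, gave 52.5% and 73.1% on HFS 3 and 23.1% and 34.3% on DOPA 3. The order was computed for only 5 of the 26 other listed choroid plexus genes on the array, so nothing is read from the count. Of these 5, 4 had the order, among them Steap1 and Kcne2, each well above background on 4 arrays. Clic6, a chloride channel protein, did not, with 128% on HFS 3. Igf2, another listed gene, did not follow it either, with a log2 signal of 12.45 on HFS 2 against 12.13 on DOPA 3. Neither Kcnj13 nor Clic6 was well above background on any 6-OHDA array. Among the members, Enpp2, Prlr, Krt8 and Wfdc2 departed from the order. Enpp2 had 404% on HFS 3 and 80.9% on HFS 2, Prlr 109% on HFS 3, and Krt8 19.2% on HFS 2 against 11.3% on DOPA 3. The HFS 1 signal of Wfdc2 did not exceed its 6-OHDA mean.

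The ratio of Sostdc1 to Ttr varied little where Ttr was high. On HFS 1, 2 and 3, DOPA 2 and DOPA 3, the 5 arrays with a Ttr log2 signal of 10 or more, the log2 ratio stayed within -0.03 to 0.52 of its value on HFS 1 (SD 0.22). It stood 1.26 and 1.74 higher on DOPA/HFS 2 and 1, and 2.83 to 3.57 higher on the 6-OHDA arrays. Sostdc1 was not alone in this. The log2 ratio of Kcnj13, a gene outside the members, to Ttr stayed within 0 to 0.42 of HFS 1 (SD 0.18). That range covers HFS 1, 2 and 3 and DOPA 3, the arrays among the 5 where Kcnj13 was well above background. Kcnj13 was also well above background on DOPA/HFS 2, where its ratio stood 2.42 above HFS 1. The ratio of Aqp1 to Ttr varied more, reaching 1.96 above HFS 1 on HFS 2 (SD 0.84 over HFS 1, 2 and 3 and DOPA 3). On the same 5 arrays, the log2 ratio of Folr1 to Ttr reached 2.51 above HFS 1 and that of Otx2 to 2.43, both on DOPA 2. Relative to HFS 1, Krt18 reached 3.86, Enpp2 5.40 and Wfdc2 5.87 there. Kl and Prlr could be set against Ttr on 2 arrays only, with ratios on HFS 3 that were 0.92 and 1.12 above those on HFS 1.

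**Figure D2:**
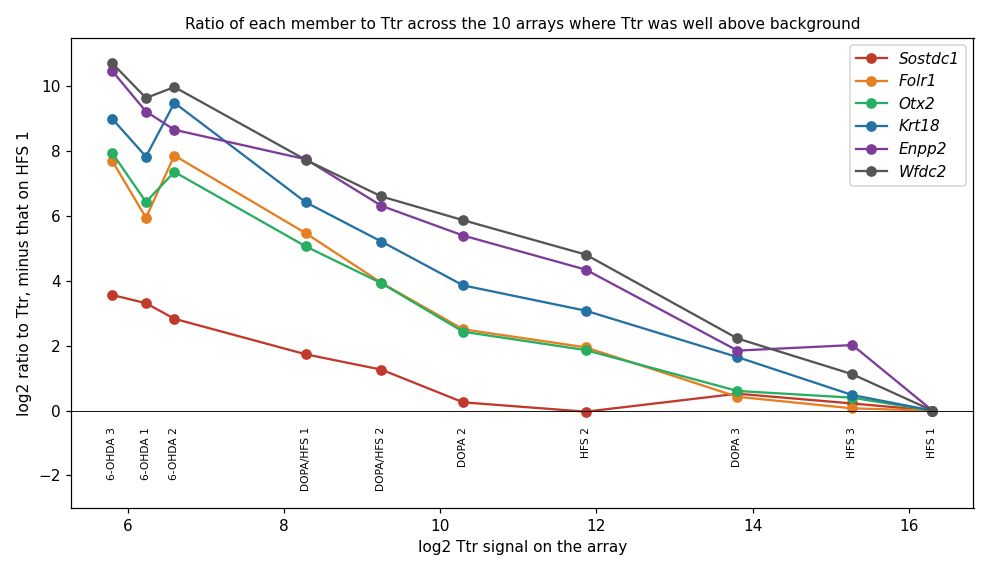
Log2 ratio of 6 members to Ttr, minus the same ratio on HFS 1 (y axis), against the log2 Ttr signal (x axis) on the 10 arrays where Ttr was well above background; lines join arrays in order of Ttr. Sostdc1 stays within -0.03 to 0.52 of 0 on the 5 arrays with the most Ttr, while Wfdc2 climbs from 0 to 5.87 on the same arrays and to 10.71 on 6-OHDA 3.

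Likeness to Ttr over the arrays was given by Pearson's r as a description, and every gene's points come from the same 12 arrays. Among the tested genes, Sostdc1 had rank 2 in likeness (r of 0.91, Spearman's rho of 0.95, r of 0.84 without the 2 arrays farthest from the Ttr median, HFS 1 and HFS 3). LOC683753 had rank 1 (r of 0.92), followed after Sostdc1 by Kcnj13 (0.90) and Aqp1 (0.88). The rest of the top 20 held named genes such as Klc3 (0.84), Scgb1c1 (0.81), Epn3 (0.80) and the growth factor gene Igf2 (0.79). Folr1 ranked 37, Otx2 40, Enpp2 182, Krt18 269, Krt8 1226 and Wfdc2 6033 of 20400.

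Folr1, Otx2 and the keratins were more alike among themselves than any of them was to Ttr. The r between Folr1 and Otx2 was 0.97, that between Folr1 and Krt18 was 0.93 and that between Folr1 and Krt8 was 0.86, each over 11 arrays. Over 12 arrays, Otx2 gave 0.88 with Krt18 and 0.82 with Krt8, but also 0.87 with Sostdc1, so it was not set apart from Sostdc1. Against Ttr, the r of Folr1 was 0.70, and it was 0.31 without HFS 1 and HFS 3. These likenesses were chosen for description after the values had been seen.
By Pearson's r, Sostdc1 lay nearer to Otx2 (0.87) and Folr1 (0.81) than to Krt18 (0.67) and Krt8 (0.57). Without HFS 1 and HFS 3, the r was 0.52 with Otx2, 0.39 with Folr1, 0.28 with Krt18 and 0.16 with Krt8. Spearman's rho did not set Otx2 apart from Krt8, at 0.45 with each, beside 0.55 with Folr1 and 0.41 with Krt18. Above the mean of 6-OHDA 1 and 3, the array 6-OHDA 2 stood 1.66 higher for Krt18, 1.62 for Folr1, 0.75 for Otx2 and 0.42 for Krt8 on the log2 scale. For Sostdc1 the same difference was -0.03 and for Ttr 0.58, so Otx2 and Krt8 were not set apart from Ttr by this array.

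Ependymal genes varied on the same arrays, 6-OHDA 2 among them. Foxj1, the regulator of motile cilia, read 10.43, 12.60 and 11.54 on 6-OHDA and 12.45, 11.62 and 12.01 on HFS. On DOPA it read 11.27, 10.74 and 11.10, and on DOPA/HFS 11.97, 11.22 and 11.69. Its r was 0.82 with Krt18, 0.81 with Folr1 and with Krt8, and 0.67 with Otx2, against 0.24 with Ttr and 0.32 with Sostdc1. Of the 14 listed ependymal genes, 8 were on the array and 6 were tested, none was called, and Spag6 was on no array well above background. The linear signals of the 8 genes were summed and taken to log2. This sum ranged from 11.19 to 13.23 in 6-OHDA, 12.40 to 13.18 in HFS, 11.51 to 11.99 in DOPA and 11.97 to 12.72 in DOPA/HFS. Foxj1 alone was a large part of it, at 12.60 on 6-OHDA 2, where the sum was 13.23. The part of ependymal genes in the values of Folr1, Otx2, Krt8 and Krt18 was not tested.

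**Figure D3:**
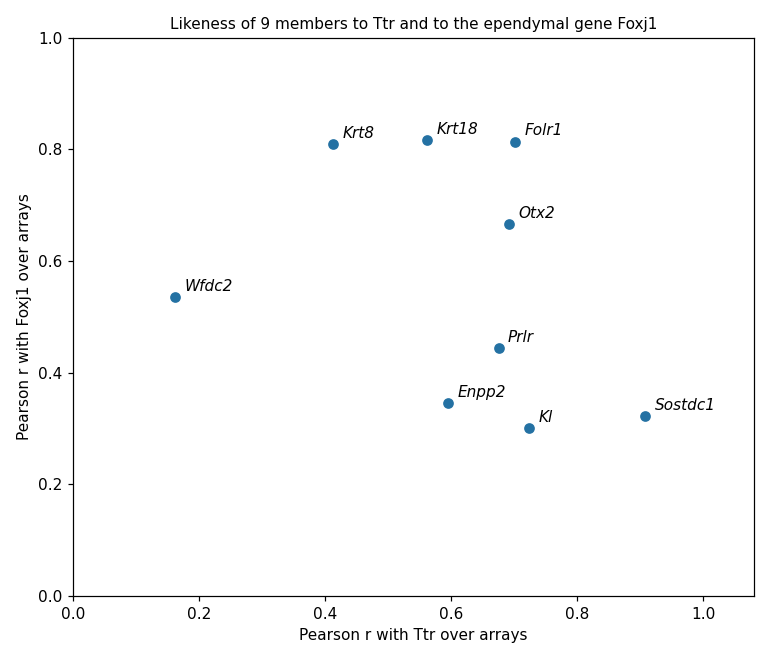
Pearson r with Foxj1 (y axis) against Pearson r with Ttr (x axis) for 9 members, each over 12 arrays (11 for Folr1). Sostdc1 lies at 0.91 and 0.32, whereas Krt8, Krt18 and Folr1 lie between 0.81 and 0.82 on the Foxj1 axis.

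Other choroid plexus genes gave the wider setting, from a list assembled with earlier results of these data known. Of 30 listed, 26 were on the array and 18 were tested, and none was called for HFS vs 6-OHDA. All 3 HFS arrays lay above the 6-OHDA arrays for 8 of the 18 (2.8% of all genes): Kcnj13, Aqp1, Clic6, Slc4a2, Igf2, Igfbp2, Slco1a5 and Cab39l. Kcnj13 and Clic6 were each well above background on 5 arrays, 3 of them HFS and 0 of them 6-OHDA. They passed the filter only through their HFS arrays, so nothing is read from the 8 of 18 or from the median of the 18. Kcnj13 read 2.72, 2.92 and 2.86 on 6-OHDA, 9.90, 5.72 and 8.98 on HFS, 2.85, 3.69 and 7.82 on DOPA and 2.58, 5.27 and 2.79 on DOPA/HFS. It was well above background on 5 arrays (HFS 1, 2 and 3, DOPA 3 and DOPA/HFS 2), so its 6-OHDA level is only a bound, and the same holds for Clic6. Aqp1, well above background on 2 of the 3 6-OHDA arrays, stood at 8.47, 5.99 and 8.07 on HFS, against 5.12 to 5.42 on 6-OHDA.
The median log2 fold change of the 18, Kcnj13 and Clic6 included, was 0.39 for HFS, against 0.01 over all genes. The tight junction gene Cldn2 and the homeobox gene Lmx1a were on no array well above background. The linear signals of the 21 listed genes with a value on every array were summed and taken to log2. This sum ranged from 12.92 to 13.20 in 6-OHDA, 13.30 to 14.36 in HFS, 12.71 to 13.26 in DOPA and 12.67 to 13.17 in DOPA/HFS. Igf2 alone was a large part of it, at 13.44 on HFS 1, where the sum was 14.36.

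**Figure D4:**
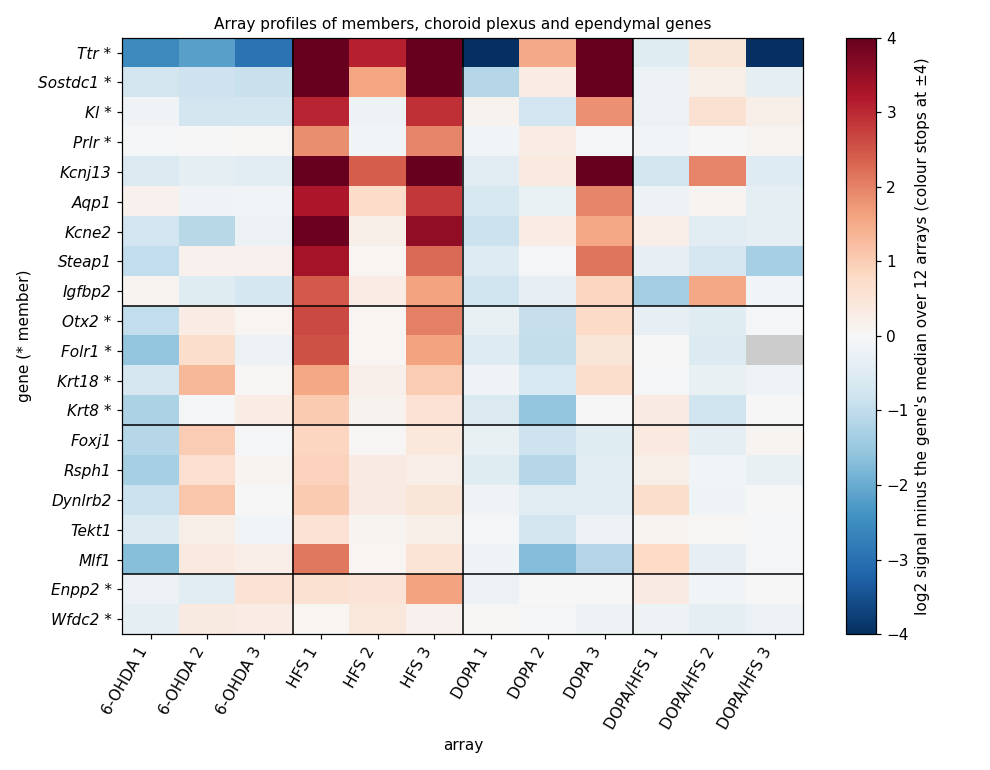
Log2 signal minus each gene's median over the 12 arrays (colour, which stops at ±4) for 20 genes (rows, members starred) on 12 arrays (columns, in groups of 3); grey marks the missing Folr1 value. Ttr, Sostdc1 and Kcnj13 are red on HFS 1, HFS 2, HFS 3 and DOPA 3, whereas Krt18 and Foxj1 are red on 6-OHDA 2 as well as HFS 1, and paler on HFS 3. The rows that are not members were picked from the longer lists of choroid plexus and ependymal genes.

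Partners in the members' pathways were described by the same counts. Of 10 tested genes that handle retinol and thyroxine, none was called, 1 (Rxrg, a retinoid X receptor of striatal neurons) was higher on every HFS array and the median HFS log2 fold change was 0.03. Rbp4, the retinol-binding protein that Ttr carries, read 13.65, 13.77 and 13.66 on 6-OHDA and 13.49, 13.53 and 13.67 on HFS. Of 9 tested partners of Sostdc1 in bone morphogenetic protein and Wnt signalling, 0 were higher on every HFS array (median 0.26), and Lrp4, a receptor that binds Sostdc1, read 8.99, 8.29 and 9.61 on 6-OHDA and 9.26, 9.46 and 9.50 on HFS.
Of 7 tested folate genes, 1 was higher on every HFS array (median 0.10). This was Mthfd1, a folate-cycle enzyme, at 10.89, 10.83 and 11.33 on 6-OHDA and 11.38, 11.41 and 11.41 on HFS.

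The remaining lists were smaller. The 3 tested klotho and FGF partners (of 8 on the array) had a median HFS log2 fold change of 0.17, and Fgf23 was well above background on 2 arrays, neither of them HFS. The 7 tested genes of prolactin receptor signalling had a median of -0.09, and the ligand gene Prl was well above background on none of the arrays. Among other keratins, 3 of 8 were tested with a median of 0.28, and Krt19 was not well above background anywhere. The lysophosphatidic acid receptor Lpar1, on which the product of Enpp2 acts, differed by 0.03 in HFS. None of these genes was called by limma for HFS vs 6-OHDA.

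Markers of other cell types that a striatal punch could hold were set beside the members. For HFS vs 6-OHDA, the median log2 fold change was 0.01 for 12 tested genes of striatal projection neurons, 0.14 for 7 of astrocytes, 0.14 for 8 of oligodendrocytes, -0.04 for 8 of microglia and -0.03 for 9 of endothelium. It was 0.62 for 6 ependymal genes and 0.14 for 10 of leptomeninges and stroma. The log2 of the summed linear signals of 12 leptomeningeal and stromal genes was highest on a DOPA/HFS array, at 13.26. It lay between 12.65 and 12.83 in HFS and between 12.48 and 12.76 in 6-OHDA.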

How the data were processed

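RNA of 12 lesioned rats was hybridised to 12 arrays, and each array was assigned to its group and replicate by the sample labels. The intensity values are those of the scanner files the authors deposited, made with Agilent Feature Extraction (version 9.1 in the submitters' processing notes), on a linear scale with local background subtracted and no scaling between arrays. The deposited log2 table had been quantile normalised by the authors and served as an alternative.

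Control spots (1639 of 45018) and outlier spots were left out. Intensities were taken to log2, quantile normalised and averaged over the spots of each of 41012 probes. Probes were kept where they were well above background on 0.4 or more of the arrays (as a share), and the brightest probe stood for its gene. Of the probes, 10735 were named through the GRCr8 RefSeq table. The 4 groups were fitted with limma 3.58.1 (lmFit, eBayes; R 4.3.3), and p-values were adjusted by Benjamini-Hochberg over all genes. A difference was called at an adjusted p under 0.1 with a fold over 1.2 or under 0.8. The fit was tested on simulated data. The number of arrays limits the precision, and p-values measure the spread between animals on 3 slides.

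Members, lists and tests were chosen with earlier results of these data known. Named genes are the members, the listed genes and the 20 tested genes most like Ttr. Replicate numbers mark the slides, by the headers of the scanner files. Deviations of same-numbered arrays from their group means correlated between -0.29 and 0.48. Alternatives covered the scaling, background correction, deposited table, filters, probe choice, outlier spots, slide block, arrays fitted, thresholds and each array left out.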

Additional observations from a re-analysis of the deposited data

Results flagged for a closer look

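Sostdc1 was singled out because its HFS arrays and its DOPA/HFS arrays lay on opposite sides of the means of their controls, 6-OHDA and DOPA. The 3 HFS arrays stood 2.38 to 6.86 above the 6-OHDA mean on the log2 scale, and the 3 DOPA/HFS arrays stood 0.82 to 1.44 below the DOPA mean (differences of -0.82 and -1.44). The HFS effect with L-DOPA minus that without was -6.29 (SE 1.79, adjusted p = 1 in limma over 20400 genes), so the difference was not called. The DOPA mean of this gene rests on DOPA 3, at 10.47 against 5.25 and 6.69 on the other DOPA arrays, and the DOPA/HFS arrays lay within the DOPA range. Without DOPA 3 the DOPA mean was 5.97, the DOPA/HFS arrays stood 0.06 to 0.68 above it, and the interaction was -4.79 (SE 1.38, adjusted p = 1 in limma), so the opposite sides turned on this 1 array.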

How the results depend on the processing

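No member was called in any of the 4 contrasts under any alternative run, with counts of 0 for the other scaling, the background correction, the deposited table, both filters, the mean over probes, kept outlier spots, an adjusted p under 0.05 and each array left out. For the 3 comparisons with 6-OHDA, the counts were also 0 with the arrays compared alone and with no fold limit. The interaction compares all 12 arrays already, and it was not run without the fold limit. With the replicate number as a block, which pairs arrays by slide, the counts were also 0. The number of members higher on every array was 2 for HFS vs 6-OHDA, and it ranged from 2 to 6 when single arrays were left out. For DOPA vs 6-OHDA it was 0, with a range of 0 to 2, and for DOPA/HFS vs 6-OHDA it was 1, with a range of 1 to 2. In the last comparison it was 0 with the deposited log2 table and 0 with outlier spots kept, and the cause was not tested. The share of all genes was not computed with an array left out, so nothing is read from these ranges. Of 167 recomputed fold changes per treatment, 1 changed sign for HFS (Wfdc2, without 6-OHDA replicate 1, at -0.08), 11 for DOPA and 17 for DOPA/HFS. For Ttr the HFS difference ranged from 7.28 to 9.58, the DOPA difference from 0.14 to 5.84 and the DOPA/HFS difference from -0.67 to 2.55. For Sostdc1 the HFS difference ranged from 3.86 to 6.46 and the DOPA difference from 0.39 to 2.99. Ttr on DOPA 1 and DOPA/HFS 3, and most values of Kl and Prlr, were not well above background, so the spread among such values is not resolved.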
